A study of Mus musculus with 12 samples.

Results

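Ion channel genes were followed in primary mouse oligodendrocyte precursor cells (OPCs), the dividing glial cells that give rise to the myelin-forming oligodendrocytes of the brain. The set held the potassium channel genes (symbols starting with Kcn), the voltage-gated sodium channel genes (Scn) and the voltage-gated calcium channel genes (Cacn), pore-forming and accessory subunits alike. It was defined by gene symbol alone, without any expression value, and comprised 137 of the 45563 symbols measured, of which 132 were protein-coding genes and 5 were noncoding RNAs named as antisense or overlapping transcripts of a channel gene. By class there were 93 potassium, 13 sodium and 26 calcium channel genes.

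The cells came from the cortices of C57BL/6 pups at postnatal day 2 to 5, were enriched with magnetic beads against PDGFRα, and were grown for 3 days in medium with PDGF-AA and FGF2. There were 4 groups of 3 libraries: wild type non-stimulated (WT NS), wild type stimulated (WT St), TNFR2-/- non-stimulated (TNFR2-/- NS) and TNFR2-/- stimulated (TNFR2-/- St). Stimulated cells had received TNF, IFNγ and IL1β at 25 ng/mL each for 3 h, and non-stimulated cells the PBS vehicle. TNFR2-/- marks a germline deletion of the receptor gene Tnfrsf1b, so that every cell of the culture and of the donor pup carried it, and the wild type mice were a separate stock. The WT cultures are numbered 2, 3 and 4 and the TNFR2-/- cultures 2, 4 and 5, in NS and St alike. The design asks which transcripts change with the cytokines in each genotype, which differ between genotypes in each condition, and whether the response itself differs.

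Potassium channels let potassium leave the cell and so hold the membrane negative. Inward rectifiers and tandem-pore leak channels do this at rest, whereas the voltage-gated families open on depolarization and bring the voltage back. Voltage-gated sodium and calcium channels pass inward current, calcium entry also acts as a signal, and accessory subunits set how many channels reach the surface and how fast they open. OPCs are known for strong inward rectification, for delayed-rectifier and A-type potassium currents that are linked to their proliferation and are lost on maturation, for AMPA receptors with gamma-family accessory subunits, and for small voltage-gated sodium and calcium currents.

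Library totals recovered from the deposited values lay between 26886878 and 30335265 read pairs. The deposited values are FPKM (fragments scaled by gene length and library size), but the length they were divided by was unrelated to annotated exon length (Spearman rho of 0.009 over 16392 genes, a description across genes), so they cannot be compared between genes. Levels are therefore given here as exon-scaled FPKM, the recovered reads scaled in the usual FPKM way by annotated exon length and library total, while every test was run on the deposited FPKM. The summed level of 9 OPC markers was 7290 to 10200 CPM (recovered reads scaled to the library total) over the 12 libraries, and that of 8 microglial markers 9.91 to 12.9, with 6 of those 8 below 1 in every library. The 8 markers of mature oligodendrocytes summed to 533 to 1300 CPM. The 10 neuronal markers summed to 221 to 352 CPM, with 2 of them (Slc17a7 and Slc17a6) below 1 in every library. The part of neurons and mature oligodendrocytes in the channel gene values was not tested. TNFR2-/- culture 5 stood apart, its 8 astrocyte markers summing to 4550 (NS) and 4530 (St) CPM against at most 3120 in the other 10 libraries. The reads assigned to Tnfrsf1b were more numerous in the libraries labelled TNFR2-/- (213 to 356) than in those labelled WT (12 to 145), and the exons they cover are not known, so genotype here means the label. In bulk RNA, fewer cells of a type and less RNA per cell cannot be told apart. The 3 libraries of a group are treated as separate cultures; if they were not, p-values would measure technical spread only.

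**Figure D1:**
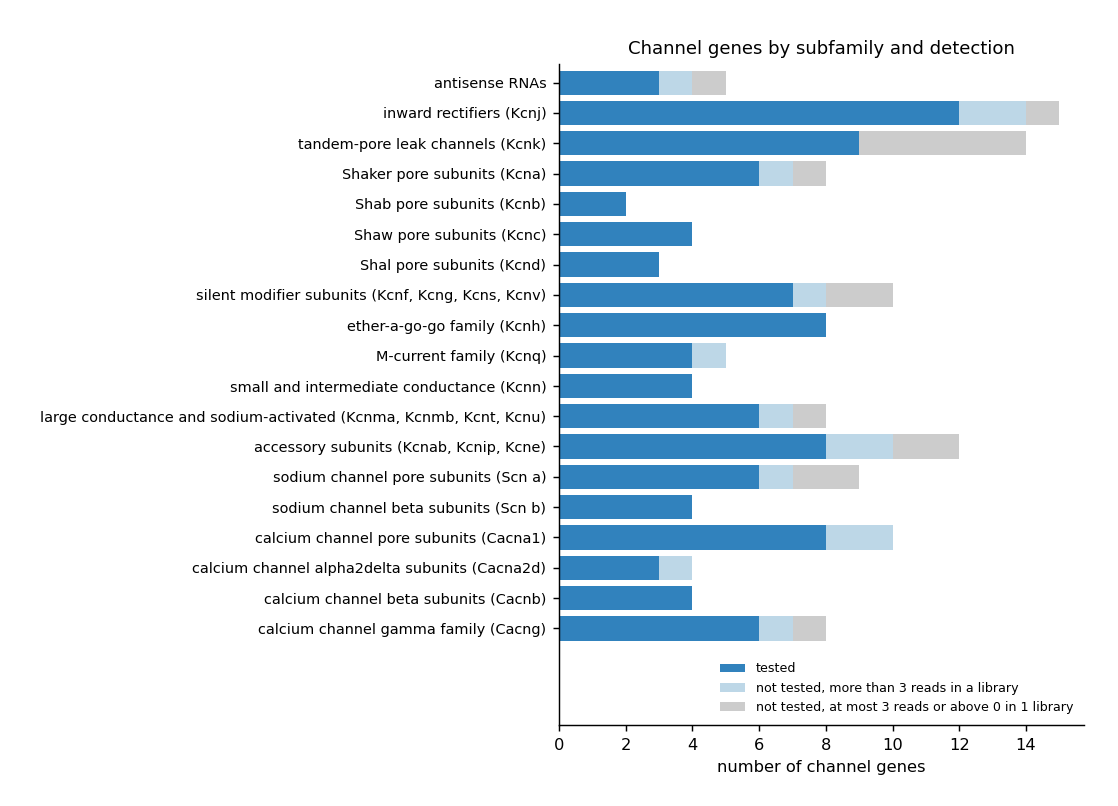
The number of channel genes in each subfamily (horizontal axis: number of genes), split into those tested, those not tested that had more than 3 reads in a library, and the rest. All 4 Shaw, all 3 Shal and all 8 ether-a-go-go genes were tested, whereas 5 of 14 tandem-pore genes had at most 3 reads in every library.

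Most of the channel family was transcribed at some level. More than 3 reads in at least 1 library were found for 121 of the 137 genes, 15 had at most 3 reads in every library, 3 of these (Kcne3, Kcnj1 and Kcnk16) had none, and Scn10a was above 0 in 1 library only. A total of 59 genes averaged over 100 reads per library. The test covered 107 genes, those with a mean deposited FPKM of at least 0.1, and the best covered of the 30 left out (Kcne1l) reached 52 reads. Of the 14 tandem-pore leak genes, 5 (Kcnk7, Kcnk9, Kcnk15, Kcnk16 and Kcnk18) had at most 3 reads in every library, as had 2 of the 12 cytoplasmic and single-span accessory genes (Kcne1 and Kcne3) and 2 of the 10 silent modifier genes (Kcns2 and Kcnv2), whose products only work inside another subunit's channel. The other genes at this floor were Kcna10, Kcnab3os, Kcnj1, Kcnmb2, Scn9a and Cacng2, the last being stargazin, the AMPA receptor partner of cerebellar granule cells. At this depth these genes were not detectable, which does not show that they are absent.

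**Figure D2:**
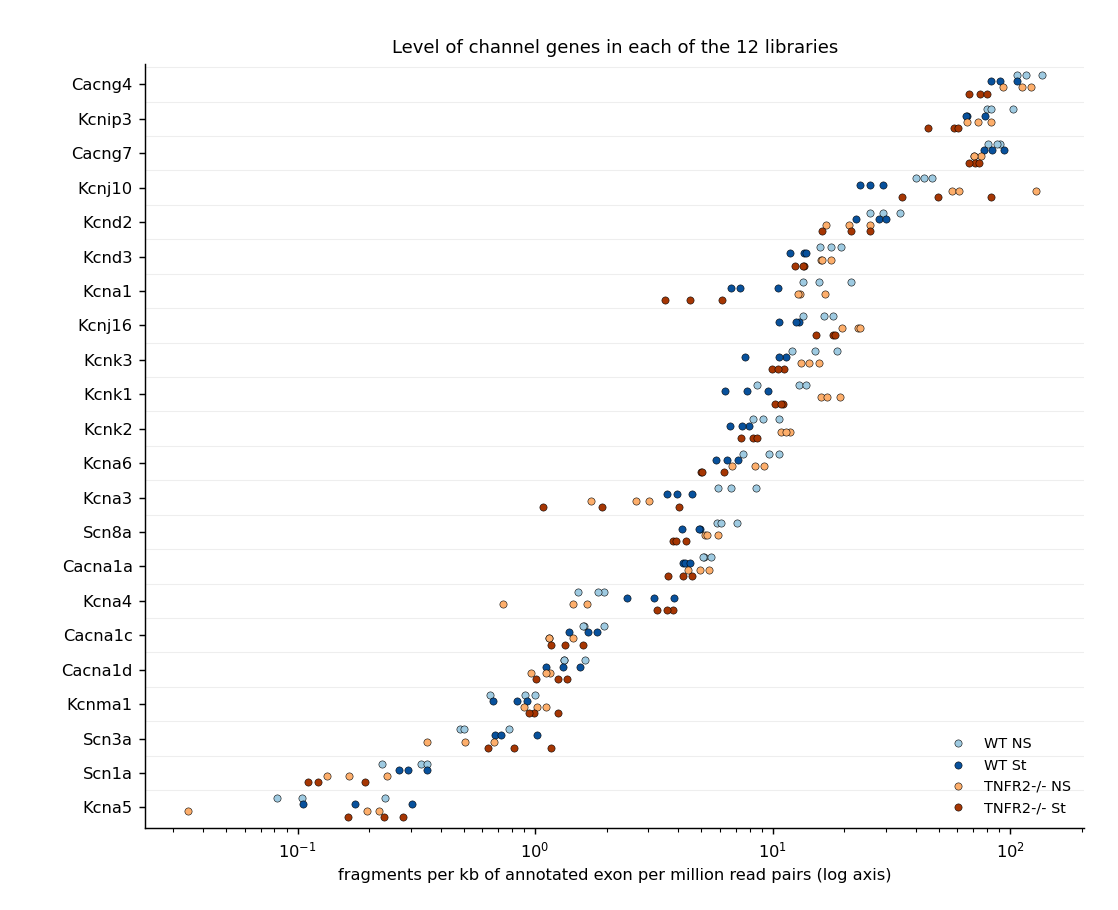
Level of 22 channel genes in each of the 12 libraries (horizontal axis: exon-scaled FPKM, that is fragments per kb of annotated exon scaled to the library total, log axis; 1 point per library, coloured by group). The levels ran from above 100 for Cacng4 to below 0.4 for Scn1a and Kcna5.

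In non-stimulated WT cells 3 accessory subunits stood above all pore-forming genes. Cacng4, a transmembrane AMPA receptor regulatory protein of the calcium channel gamma family, was the highest, at an exon-scaled FPKM of 120 ± 14.7 (SD, n = 3). Kcnip3, a calcium-binding protein that attaches to Shal channels and also acts as a transcriptional repressor, reached an exon-scaled FPKM of 88.7 ± 12.6. Cacng7, another AMPA receptor partner, reached 86.4 ± 5.03, and the ranges of Kcnip3 and Cacng7 overlapped. These 3 genes held 48.5% of the summed exon-scaled FPKM of all channel genes in this group.

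The highest pore-forming gene was Kcnj10, the inward rectifier that sets the resting potential of glia, at an exon-scaled FPKM of 43.6 ± 3.33. It was followed by the Shal genes of A-type current, Kcnd2 at 29.8 ± 4.46 and Kcnd3 at 17.6 ± 1.79 exon-scaled FPKM. Kcnd2 was apart from its neighbours on both sides, whereas from Kcnd3 downward adjacent genes overlapped in their ranges. The next were Kcna1, a Shaker delayed rectifier, at 16.9 ± 4.09, and Kcnj16, which assembles with Kcnj10, at 16 ± 2.29 exon-scaled FPKM. The acid-sensitive leak channel Kcnk3 was at 15.3 ± 3.22 exon-scaled FPKM, and these 9 genes together made up 71.4% of the summed level.

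Of the 3 classes, the sodium channel genes had the lowest summed level. The exon-scaled FPKM summed to 328 ± 22.2 for potassium, 256 ± 17.6 for calcium and 23.9 ± 1.22 for sodium channel genes in WT NS libraries. Most of the calcium sum, 219 ± 16.6, came from the gamma family, which includes the AMPA receptor partners. The calcium pore genes summed to only 18.5 ± 0.768, the beta subunits to 11.6 ± 0.257 and the alpha2delta subunits to 7.54 ± 0.373. Scn8a, the pore subunit of mature nodes of Ranvier, had 6.32 ± 0.644 of the 7.73 ± 0.735 exon-scaled FPKM of all pore-forming sodium channel genes. Scn3a, the embryonic form, was at 0.484, 0.776 and 0.503, and Scn1a at 0.227, 0.33 and 0.35 exon-scaled FPKM in the 3 WT NS libraries. The T-type gene Cacna1h led the calcium pores at 8.21 ± 0.881, ahead of Cacna1a, the P/Q-type pore, at 5.26 ± 0.23 exon-scaled FPKM. The L-type pores Cacna1c and Cacna1d were at 1.59 to 1.96 and 1.32 to 1.63 exon-scaled FPKM, and their ranges overlapped.

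Stimulation gave calls for 17 channel genes and genotype for 7. A gene was called where the adjusted p was at most 0.05, the fold at least 1.5 in either direction and the mean deposited FPKM at least 1, by limma on log2(FPKM + 0.5) with Benjamini-Hochberg adjustment over all 18081 genes tested. In WT cells 3 of 107 channel genes rose (2.8%, against 4.58% of all genes tested) and 7 fell (6.54%, against 2.95%). In TNFR2-/- cells 4 rose (3.74%, against 5.41%) and 11 fell (10.3%, against 4.68%). Of these, 8 were called in both genotypes. Channel genes had a median log2 fold change of -0.143 in WT, where the median of all genes tested was -0.055, and of -0.144 in TNFR2-/-, where it was -0.109. The NS and St libraries did not overlap for 48 channel genes in WT (44.9%, against 37.7% of all genes) and for 39 in TNFR2-/- (36.4%, against 37.3%).

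**Figure D3:**
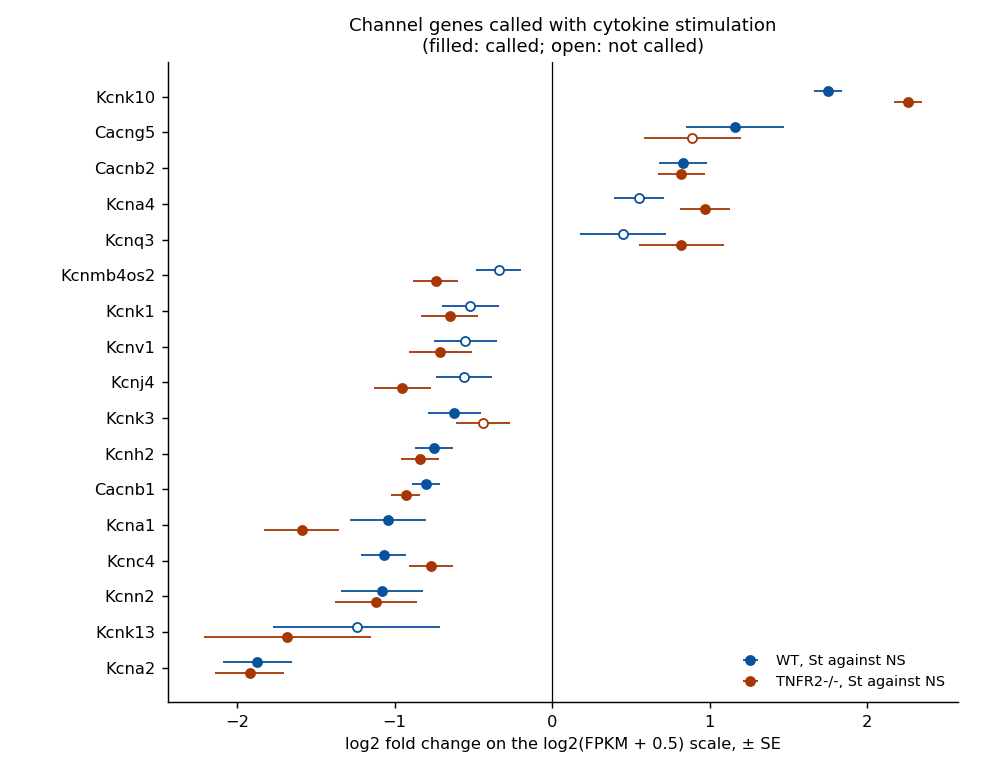
The log2 fold change with stimulation of the 17 channel genes called in either genotype (horizontal axis: log2 fold change on the log2(FPKM + 0.5) scale, bars: SE; WT in blue, TNFR2-/- in brown; filled where called). Each gene lies on 1 side of 0 in both genotypes, 5 of them above 0 and 12 below.

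Kcnk10 had the largest fitted rise of the called channel genes in both genotypes. It encodes a tandem-pore leak channel that opens with membrane stretch, warmth and polyunsaturated fatty acids, and lies at chr12:98429437-98578310 (GRCm38). Its exon-scaled FPKM was 1.05, 0.95 and 1.0 in WT NS and 3.72, 3.64 and 3.5 in WT St. In TNFR2-/- it was 1.09, 0.904 and 0.857 without and 4.83, 5.09 and 4.94 with the cytokines. Each stimulated library lay above each non-stimulated one, and the TNFR2-/- St libraries above the WT St ones. Its log2 fold change was 1.75 ± 0.09 (SE) in WT (limma, adjusted p = 2.51e-07) and 2.26 ± 0.09 in TNFR2-/- (adjusted p = 3.56e-08). Both calls held under all 23 alternative settings. The response differed by 0.51 ± 0.13 between genotypes, which did not pass the interaction test (unadjusted p = 0.00206, adjusted p = 0.493 by limma).

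Both RefSeq promoter windows of Kcnk10 and 1 each of Cacnb2 and Kcna2, genes called in both genotypes, are printed 5′ to 3′ to show what lies around their annotated starts (GRCm38.p6, 250 bases before to 50 after each start). Capitals mark matches on either strand to GGGNNNNNCC, a loose form of the NF-kB site. The 2 windows of Kcnk10 lie at chr12:98578164-98578463 and chr12:98575078-98575377 on the minus strand, that of Cacnb2 at chr2:14604056-14604355 and that of Kcna2 at chr3:107101317-107101616, both on the plus strand.
Kcnk10 upstream start: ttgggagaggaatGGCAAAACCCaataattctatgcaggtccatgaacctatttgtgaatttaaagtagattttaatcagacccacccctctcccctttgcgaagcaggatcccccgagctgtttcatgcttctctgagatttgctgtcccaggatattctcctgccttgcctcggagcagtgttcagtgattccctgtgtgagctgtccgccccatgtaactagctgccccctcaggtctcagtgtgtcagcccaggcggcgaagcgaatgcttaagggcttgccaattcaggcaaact
Kcnk10 downstream start: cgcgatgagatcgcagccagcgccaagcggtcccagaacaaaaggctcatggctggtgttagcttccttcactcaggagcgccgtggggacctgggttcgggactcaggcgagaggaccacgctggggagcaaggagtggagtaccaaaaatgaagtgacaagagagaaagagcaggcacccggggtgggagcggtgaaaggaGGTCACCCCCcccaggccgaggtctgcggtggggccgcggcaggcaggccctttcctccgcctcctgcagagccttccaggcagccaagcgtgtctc
Cacnb2: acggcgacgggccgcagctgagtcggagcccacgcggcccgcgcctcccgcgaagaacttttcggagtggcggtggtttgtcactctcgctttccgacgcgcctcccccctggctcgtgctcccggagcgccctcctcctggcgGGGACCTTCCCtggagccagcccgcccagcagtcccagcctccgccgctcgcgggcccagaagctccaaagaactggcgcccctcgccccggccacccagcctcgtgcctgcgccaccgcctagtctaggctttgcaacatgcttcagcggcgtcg
Kcna2: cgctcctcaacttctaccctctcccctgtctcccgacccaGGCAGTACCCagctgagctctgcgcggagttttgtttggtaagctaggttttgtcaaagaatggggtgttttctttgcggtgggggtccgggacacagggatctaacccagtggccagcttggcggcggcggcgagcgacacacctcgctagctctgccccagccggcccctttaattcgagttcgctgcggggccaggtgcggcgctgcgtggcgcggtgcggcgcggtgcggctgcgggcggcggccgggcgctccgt
The letters GGGNNNNNCC occur in 50.8% of the 32851 promoter windows in the RefSeq table, and in 6 of the 7 windows of genes called higher and 7 of the 9 of genes called lower with stimulation. In Cacnb2 the forward and the reverse match overlap and are capitalized as 1 run, and its other window has no match. The 4 other motifs searched, TTCNNNGAA (GAS, in 8.3% of windows), GAAANNGAAA (ISRE, 3.44%), TGACGTCA (CRE, 1.79%) and TGANTCA (AP-1, 7.81%), have no match in these 4 windows. Windows were found for 100 of the 137 genes.

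Cacnb2 rose in both genotypes as well. It encodes a cytoplasmic beta subunit that carries voltage-gated calcium channels to the membrane and adjusts their gating. It had an exon-scaled FPKM of 0.665, 0.576 and 0.648 in WT NS and 1.41, 1.21 and 1.2 in WT St. In TNFR2-/- it was 1.03, 0.744 and 0.633 without and 1.69, 1.65 and 1.32 with stimulation, and the groups did not overlap in either genotype. On the log2 scale the fold change was 0.83 ± 0.15 (limma, adjusted p = 0.00339) in WT and 0.82 ± 0.15 (adjusted p = 0.00256) in TNFR2-/-, under all 23 alternatives as well.

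Cacnb1, another beta subunit, moved the other way. In exon-scaled FPKM it was at 3.02, 3.24 and 2.91 in WT NS and 1.53, 1.86 and 1.86 in WT St. In TNFR2-/- it was 3.19, 3.51 and 3.85 before and 1.78, 1.86 and 1.87 after stimulation, again without overlap. In the fit, the log2 fold change was -0.80 ± 0.09 (limma, adjusted p = 0.000118) in WT and -0.93 ± 0.09 (adjusted p = 3.01e-05) in TNFR2-/-, and no alternative ended either call. The remaining beta subunit genes were not called. Cacnb3, the highest of the 4, had a log2 fold change of -0.38 ± 0.06 in TNFR2-/- (limma, adjusted p = 0.00155), below the fold required, and -0.14 ± 0.06 in WT (adjusted p = 0.182).

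**Figure D4:**
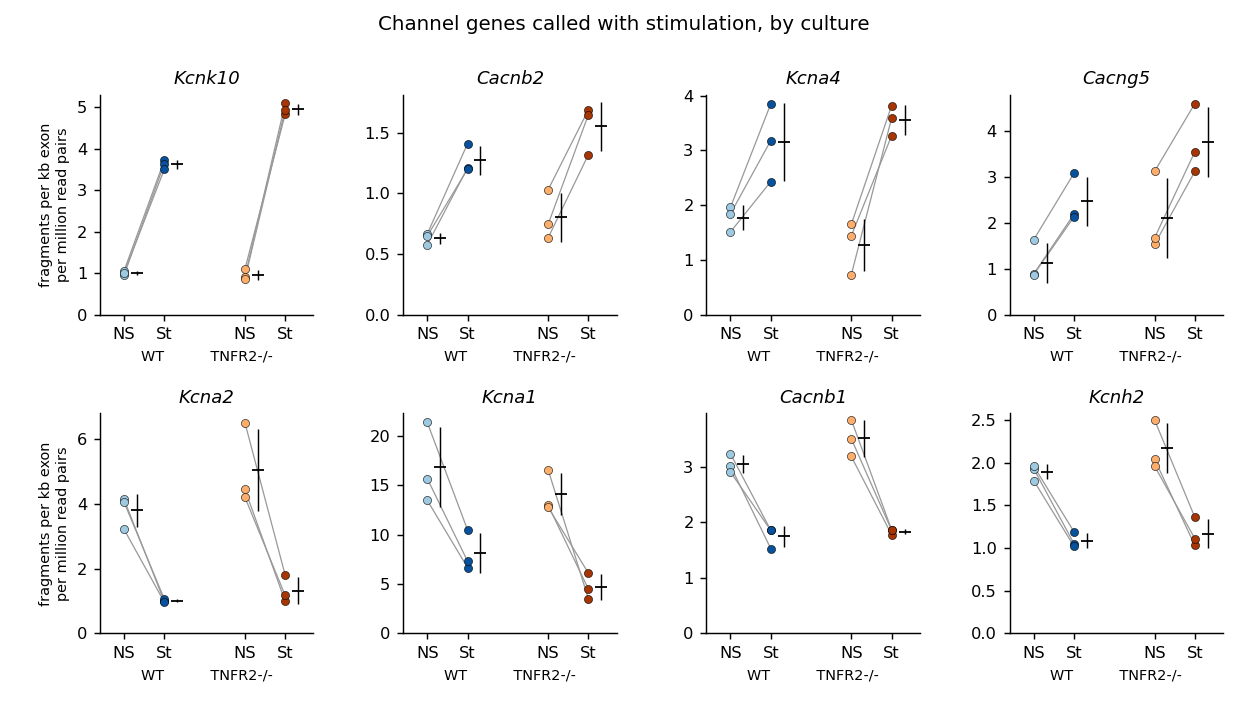
Level of 8 channel genes called with stimulation (vertical axes: exon-scaled FPKM from 0; points: libraries, lines: the NS and St libraries with 1 culture number, bars: mean ± SD of the 3 libraries). Every line rises for Kcnk10, Cacnb2, Kcna4 and Cacng5 and falls for Kcna2, Kcna1, Cacnb1 and Kcnh2.

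The Shaker genes, which form low-threshold delayed rectifiers, gave the largest called fall. Kcna2 (chr3:107101146-107115005) was at an exon-scaled FPKM of 4.13, 4.05 and 3.21 in WT NS and 0.985, 1.06 and 0.966 in WT St. In TNFR2-/- it was at 4.44, 4.2 and 6.5 before and 0.988, 1.17 and 1.8 after stimulation. The highest stimulated library was below the lowest non-stimulated one in both genotypes. Fitted over all libraries, the log2 fold change was -1.87 ± 0.22 (limma, adjusted p = 0.000157) in WT and -1.92 ± 0.22 (adjusted p = 9.87e-05) in TNFR2-/-, and both calls held under all 23 alternatives.

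Kcna1, the most abundant Shaker gene, fell in both genotypes as well. It went from 13.5, 21.4 and 15.7 to 6.67, 10.5 and 7.33 exon-scaled FPKM in WT. In TNFR2-/- it went from 13, 12.8 and 16.6 to 4.49, 6.11 and 3.51, with no overlap in either genotype. Its log2 fold change was -1.04 ± 0.24 (limma, adjusted p = 0.0132) in WT and -1.59 ± 0.24 (adjusted p = 0.000736) in TNFR2-/-. The call in TNFR2-/- held under all 23 alternatives. That in WT was lost without WT NS culture 3 (adjusted p = 0.0545), WT St culture 2 (0.0567) or WT St culture 4 (0.0532), in a range from 0.0049 to 0.0567 over the alternatives.

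Kcna4, the Shaker gene of A-type current, moved against Kcna1 and Kcna2. Its exon-scaled FPKM was 1.65, 1.44 and 0.73 in TNFR2-/- NS and 3.82, 3.27 and 3.59 in TNFR2-/- St, and in WT it was 1.51, 1.96 and 1.84 before and 2.43, 3.85 and 3.18 after stimulation. The stimulated libraries lay above the non-stimulated ones in both genotypes. It was called in TNFR2-/- at a log2 fold change of 0.97 ± 0.16 (limma, adjusted p = 0.00168), in all 23 alternatives too. In WT the log2 fold change of 0.55 ± 0.16 (adjusted p = 0.0475) was under the fold required. The deposited length of Kcna4 is 11395 bases against 4833 annotated, so its deposited FPKM is low and the pseudocount of 0.5 shrinks the fold; the recovered reads gave 0.82 in WT and 1.56 in TNFR2-/- by limma-voom.

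Kcna6, which with Kcna4 and Kcna5 is linked to OPC proliferation, was at 9.7, 10.6 and 7.53 in WT NS and 6.41, 7.14 and 5.77 exon-scaled FPKM in WT St. In TNFR2-/- it was at 6.76, 9.18 and 8.47 before and 5.0, 6.27 and 5.05 after stimulation. Its log2 fold changes of -0.51 ± 0.15 and -0.57 ± 0.15 (limma, adjusted p = 0.0468 and 0.0201) were under the fold required. Kcna5 was near the limit of detection, with 3 to 26 reads per library, and had log2 fold changes of 0.23 ± 0.29 and 0.35 ± 0.29 (adjusted p = 0.691 and 0.424).

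Among the other voltage-gated potassium genes, Kcnh2 and Kcnc4 fell in both genotypes. Kcnh2, the ether-a-go-go-related channel of cardiac repolarization, was at an exon-scaled FPKM of 1.93, 1.79 and 1.96 in WT NS and 1.05, 1.02 and 1.19 in WT St. In TNFR2-/- it was at 2.04, 1.96 and 2.5 before and 1.03, 1.11 and 1.36 after stimulation, with no overlap. Its log2 fold changes were -0.75 ± 0.12 in WT (limma, adjusted p = 0.00158) and -0.84 ± 0.12 in TNFR2-/- (adjusted p = 0.000547), and they stayed called under all 23 alternatives.

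Kcnc4, a fast delayed rectifier of the Shaw family, was at an exon-scaled FPKM of 1.17, 1.21 and 0.864 in WT NS and 0.335, 0.363 and 0.417 in WT St. In TNFR2-/- it was at 1.31, 1.75 and 1.84 before and 0.836, 0.829 and 0.865 after stimulation. The groups did not overlap. On the log2 scale the fold change was -1.07 ± 0.14 (limma, adjusted p = 0.000337) in WT and -0.77 ± 0.14 (adjusted p = 0.00231) in TNFR2-/-, called under all 23 alternatives. Kcnc1, a more abundant Shaw gene, was not called over the 12 libraries, but was called in the fit with the culture as a block (log2 fold change -0.80 ± 0.07 in WT and -0.65 ± 0.07 in TNFR2-/-, adjusted p = 0.000318 and 0.000589 by limma). Kcnc1 was named after its values were seen.

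The calcium-activated gene Kcnn2, a small-conductance channel of the afterhyperpolarization, fell in both genotypes. It had an exon-scaled FPKM of 0.709, 0.662 and 0.523 in WT NS and 0.267, 0.227 and 0.28 in WT St. In TNFR2-/- it was 0.925, 0.832 and 1.53 before and 0.335, 0.376 and 0.704 after stimulation, without overlap. In the fit, the log2 fold change was -1.08 ± 0.26 (limma, adjusted p = 0.0179) in WT and -1.12 ± 0.26 (adjusted p = 0.0107) in TNFR2-/-. The WT call was lost without WT NS culture 2 (adjusted p = 0.067), WT NS culture 3 (0.0595) or WT St culture 3 (0.0611), in a range from 0.000414 to 0.067 over the alternatives. That in TNFR2-/- was lost only in the fit to the compared libraries alone (0.0692), the upper end of a range that began at 0.000538.

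Further genes were called in 1 genotype, which does not show that the genotypes differ. In WT these were Cacng5 and Kcnk3. Cacng5, an atypical AMPA receptor partner, was at 1.63, 0.883 and 0.87 in WT NS and 3.08, 2.19 and 2.13 exon-scaled FPKM in WT St, without overlap (log2 fold change 1.16 ± 0.31, limma adjusted p = 0.0276). In TNFR2-/- it was at 1.53, 3.12 and 1.67 before and 3.12, 4.6 and 3.55 after stimulation, which touch (0.89 ± 0.31, adjusted p = 0.0591), and it was called there with the culture as a block (adjusted p = 0.00138). The WT call was lost without WT NS culture 3 (0.101), WT NS culture 4 (0.0996), or WT St culture 2 (0.103), 3 (0.0539) or 4 (0.0539), in a range from 0.000593 to 0.103. It was also lost with no filter on low values (0.0567).

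Kcnk3 was at 12.1, 18.6 and 15.1 in WT NS and 7.66, 11.4 and 10.6 exon-scaled FPKM in WT St, without overlap (log2 fold change -0.62 ± 0.17, limma adjusted p = 0.0303). In TNFR2-/- it went from 15.7, 14.2 and 13.2 to 11.2, 9.91 and 10.5 (-0.44 ± 0.17, adjusted p = 0.0788). Its WT call was lost without WT NS culture 3 (0.111), WT NS culture 4 (0.0809), WT St culture 2 (0.101) or WT St culture 4 (0.0533), in a range from 0.000267 to 0.111. It was also lost with no filter on low values (0.0581), with median-of-ratios scaling (0.056) and in the fit to the compared libraries alone (0.0907).

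In TNFR2-/- the genes called with stimulation beside those above were Kcnj4, Kcnk1, Kcnk13, Kcnq3, Kcnv1 and Kcnmb4os2. Kcnj4, a strong inward rectifier, fell from 1.1, 0.89 and 1.26 to 0.495, 0.492 and 0.518 exon-scaled FPKM (log2 fold change -0.95 ± 0.18, limma adjusted p = 0.00345) and stayed called under all 23 alternatives. In WT it was at 0.975, 0.639 and 1.15 before and 0.571, 0.511 and 0.649 after stimulation (-0.56 ± 0.18, adjusted p = 0.0656). Kcnk1, a weakly conducting leak channel, fell from 19.2, 16 and 16.9 to 11.1, 10.2 and 10.9 (-0.65 ± 0.18, adjusted p = 0.0203). Its call was lost without TNFR2-/- NS culture 2 (0.0702), without TNFR2-/- St culture 4 (0.0626), without both libraries of culture 5 (0.0758) and with median-of-ratios scaling (0.0507), in a range from 0.000538 to 0.0758. In WT, Kcnk1 was lower after stimulation in each culture too, at 12.9, 8.62 and 13.8 before and 7.84, 6.29 and 9.56 after. It was not called there over the 12 libraries, but was in 2 alternatives.

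Kcnv1, a silent modifier subunit, went from 1.43, 1.07 and 1.06 to 0.806, 0.605 and 0.699 exon-scaled FPKM in TNFR2-/- (log2 fold change -0.71 ± 0.20, limma adjusted p = 0.0253). The groups did not overlap, but the call was lost without TNFR2-/- NS culture 2 (0.0909), TNFR2-/- St culture 4 (0.0883), TNFR2-/- St culture 5 (0.0567) or both libraries of culture 5 (0.0702), in a range from 0.00232 to 0.0909. It was also lost with median-of-ratios scaling (0.0607). In WT, Kcnv1 went from 0.929, 1.22 and 0.778 to 0.775, 0.683 and 0.493, lower in each culture but not called. The noncoding Kcnmb4os2 went from 1.74, 1.29 and 1.56 to 0.822, 0.996 and 0.74 (-0.74 ± 0.14, adjusted p = 0.00329) under all 23 alternatives. In WT, Kcnmb4os2 went from 1.33, 1.12 and 0.989 to 0.804, 0.921 and 0.87, lower in each culture but not called. Since the strand setting of the counting is not given in the sources used here, its reads cannot be told apart from those of its partner gene.

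Kcnk13 and Kcnq3 were called in TNFR2-/- although their groups overlapped. Kcnk13, a halothane-inhibited leak channel, was at an exon-scaled FPKM of 1.33, 0.722 and 0.36 before and 0.396, 0.191 and 0.112 after stimulation (log2 fold change -1.68 ± 0.53, limma adjusted p = 0.0403). Kcnq3, an M-current subunit, was at 1.26, 1.51 and 2.36 before and 2.11, 2.92 and 4.12 after (0.82 ± 0.27, adjusted p = 0.0479). Within each culture Kcnk13 was lower and Kcnq3 higher after stimulation, and with the culture as a block the adjusted p was 0.000152 and 4.91e-05. In WT, Kcnk13 was at 0.631, 0.347 and 0.643 before and 0.342, 0.128 and 0.203 after stimulation (-1.24 ± 0.53, adjusted p = 0.158), and was called there too with the block (0.000756). Kcnq3 went from 1.88, 2.55 and 2.21 to 2.45, 3.61 and 3.05 in WT, higher in each culture but not called. Kcnk13 lost its call without TNFR2-/- NS culture 2 (0.137) or 4 (0.0877), TNFR2-/- St culture 4 (0.1) or 5 (0.128), WT NS culture 2 (0.0536) or 4 (0.0543), or WT St culture 4 (0.0576), in a range up to 0.137. It was also lost with no filter on low values (0.0781), with median-of-ratios scaling (0.0651) and in the fit to the compared libraries alone (0.109). Kcnq3 lost its call without TNFR2-/- NS culture 2 (0.156) or 4 (0.118), TNFR2-/- St culture 4 (0.103) or 5 (0.151), or any 1 of the 6 WT libraries (0.0531 to 0.0672), in a range up to 0.156. It was also lost with no filter on low values (0.0891), without the trended prior (0.0548) and in the fit to the compared libraries alone (0.137).

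The major glial inward rectifier Kcnj10 was lower after stimulation in every culture. In exon-scaled FPKM it was at 47.0, 40.3 and 43.6 in WT NS and 25.7, 23.3 and 29.1 in WT St. In TNFR2-/- it was 56.9, 61.2 and 129 before and 35.1, 49.5 and 82.8 after stimulation. The WT groups did not overlap, whereas the TNFR2-/- groups did, culture 5 being the highest in both. The log2 fold change of -0.73 ± 0.33 in WT was not called with the spread of all 12 libraries (limma, adjusted p = 0.18), and was called with the culture as a block (adjusted p = 0.00121) and without both libraries of culture 5 (0.005). In TNFR2-/- it was -0.54 ± 0.33 (adjusted p = 0.266), and -0.54 ± 0.09 (adjusted p = 0.00313) with the block, under the fold required. Its partner Kcnj16 went from 18, 16.5 and 13.5 to 12.9, 12.5 and 10.6 in WT and from 19.7, 22.9 and 23.4 to 15.2, 18 and 18.4 in TNFR2-/-, with log2 fold changes of -0.41 ± 0.12 and -0.36 ± 0.12 (adjusted p = 0.0451 and 0.0579) that were under the fold required.

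The 3 accessory genes at the top of the order were under the fold required. Cacng4 had a log2 fold change of -0.35 ± 0.13 in WT (limma, adjusted p = 0.0988) and -0.56 ± 0.13 in TNFR2-/- (adjusted p = 0.0096), Kcnip3 -0.34 ± 0.14 (0.14) and -0.44 ± 0.14 (0.0386), and Cacng7 -0.02 ± 0.08 (0.903) and -0.03 ± 0.08 (0.799). None of them was called in either genotype over the 12 libraries, but Cacng4 was called in TNFR2-/- without TNFR2-/- NS culture 2 (-0.67, adjusted p = 0.00623) or TNFR2-/- St culture 5 (-0.61, 0.0144) and with quantile normalization (-0.64, 0.00669). The Shal genes were not called either, Kcnd2 being at -0.15 ± 0.20 (0.71) and -0.01 ± 0.20 (0.99) and Kcnd3 at -0.43 ± 0.09 (0.00786) and -0.34 ± 0.09 (0.0181) on the log2 scale.

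No pore-forming sodium or calcium channel gene was called with stimulation over the 12 libraries. Scn8a had a log2 fold change of -0.43 ± 0.10 in both genotypes (limma, adjusted p = 0.0112 in WT and 0.00836 in TNFR2-/-), under the fold required. Scn3a was at 0.41 ± 0.27 (0.377) in WT and 0.68 ± 0.27 (0.0885) in TNFR2-/-, and was called in TNFR2-/- with the culture as a block (adjusted p = 0.000293). Cacna1a was at -0.28 ± 0.10 (0.0839) and -0.25 ± 0.10 (0.0857), Cacna1c at -0.08 ± 0.14 (0.798) and 0.13 ± 0.14 (0.571), and Cacna1d at -0.11 ± 0.15 (0.697) and 0.15 ± 0.15 (0.493) on the log2 scale. The large-conductance gene Kcnma1 was at -0.05 ± 0.17 (0.898) and 0.06 ± 0.17 (0.824), and the stretch-opened leak gene Kcnk2, a close relative of Kcnk10, at -0.32 ± 0.11 (0.0654) and -0.47 ± 0.11 (0.00852).

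A total of 5 genes passed the adjusted p and the fold in some comparison but not the level of 1 deposited FPKM, a level that depends on the deposited length. Among them Kcnj8, the pore of an ATP-sensitive potassium channel, had the clearest pattern, and it was named after its values were seen. It had 3, 0 and 0 reads in WT NS and 24, 36 and 18 in WT St, and 2, 2 and 1 in TNFR2-/- NS and 25, 31 and 11 in TNFR2-/- St. Every stimulated library was above every non-stimulated one. The summed reads, scaled by library totals, were 25-fold higher with stimulation in WT (95% exact interval 8.26 to 124) and 13.7-fold higher in TNFR2-/- (5.57 to 43.4), intervals that cover counting error only. Fitted over all libraries, the log2 fold change was 0.80 ± 0.15 (limma, adjusted p = 0.00399) in WT and 0.67 ± 0.15 (0.00744) in TNFR2-/-, values that the pseudocount compresses. Pericytes are known to express Kcnj8 with Abcc9, its regulatory subunit. Abcc9 was below 1 CPM in every library, and Kcnj8 itself was low, with at most 36 reads in a library. The 7 mural cell markers summed to 430 to 1370 CPM in WT NS, 533 to 1240 in WT St, 247 to 864 in TNFR2-/- NS and 180 to 740 in TNFR2-/- St, ranges that overlap between NS and St of each genotype. The part of mural cells in the Kcnj8 values was not tested. The other 4 were Kcnk4 (lower in WT St), Kcng1 (lower in TNFR2-/- St), and Kcne2 and Kcnj14 (higher and lower in TNFR2-/- NS than in WT NS).

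Between genotypes few channel genes were called. Among non-stimulated cells 4 of 107 were higher in the libraries labelled TNFR2-/- (3.74%, against 1.62% of all genes tested) and 1 was lower (0.935%, against 1.28%). Among stimulated cells 3 were higher (2.8%, against 1.18%) and 1 was lower (0.935%, against 0.614%). The genotypes did not overlap for 30 channel genes in NS (28.0%, against 34.2% of all genes) and for 34 in St (31.8%, against 32.7%). The median log2 fold change of the channel genes was 0.018 in NS, where that of all genes tested was 0.038, and 0.028 in St, where it was -0.003. The counts rest on few libraries. The 5 non-stimulated calls became 1 without WT NS culture 3, WT NS culture 4 or TNFR2-/- NS culture 5, 3 without TNFR2-/- NS culture 2 or without both libraries of culture 5, and 9 without TNFR2-/- NS culture 4. The 4 stimulated calls became 0 without WT St culture 3, WT St culture 4 or TNFR2-/- St culture 5, 1 without TNFR2-/- St culture 2, and 2 without WT St culture 2 or without both libraries of culture 5.

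Kcng4 was called in both conditions. This silent modifier subunit, with 29 to 129 reads per library, was at 0.333, 0.41 and 0.289 in WT NS and 0.742, 0.634 and 1.12 exon-scaled FPKM in TNFR2-/- NS. In stimulated cells it was at 0.306, 0.254 and 0.341 in WT and 0.578, 0.608 and 0.861 in TNFR2-/-, and the genotypes did not overlap. On the log2 scale the fold change was 1.21 ± 0.22 (limma, adjusted p = 0.0173) in NS and 1.13 ± 0.22 (0.0264) in St. The NS call was lost without WT NS culture 3 (0.0583), WT NS culture 4 (0.0656) or TNFR2-/- NS culture 5 (0.0512), in a range from 0.0104 to 0.0852. The St call was lost without WT St culture 2 (0.0548), 3 (0.105) or 4 (0.073) or TNFR2-/- St culture 2 (0.0514) or 5 (0.0899), in a range from 0.0153 to 0.105. Both calls were also lost in the fit to the compared libraries alone (0.0852 in NS and 0.059 in St).

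**Figure D5:**
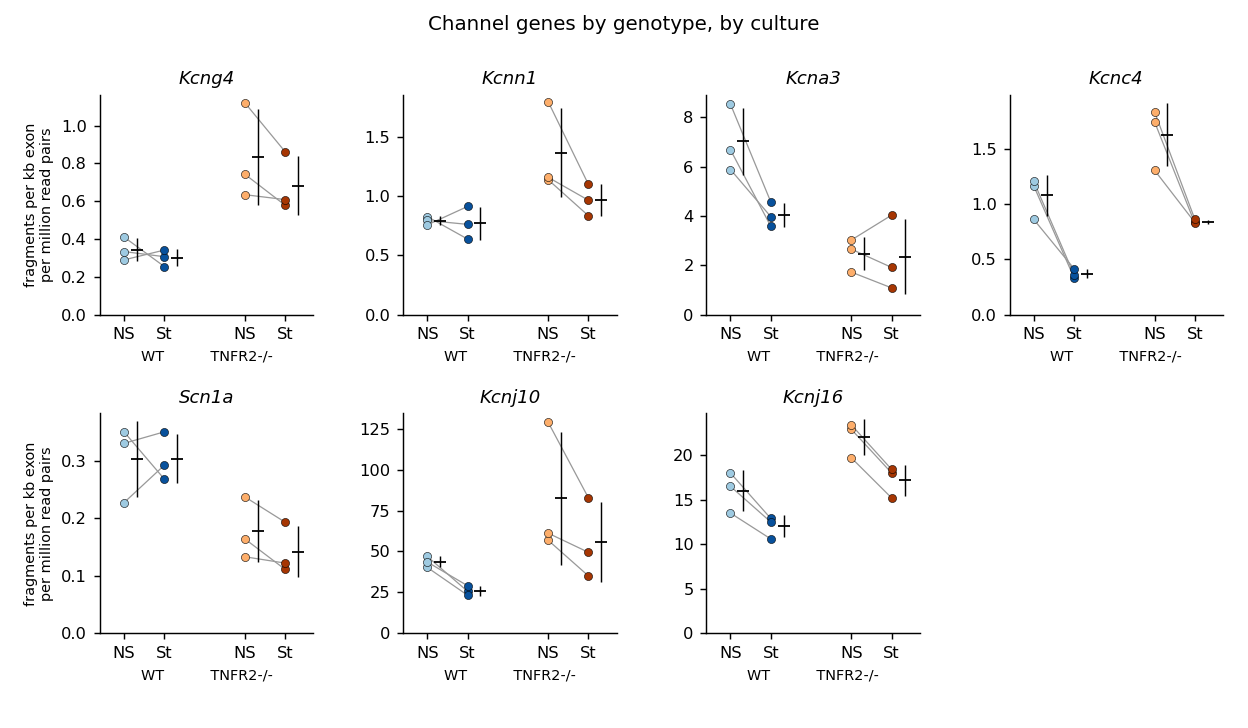
Level of 7 channel genes by genotype (vertical axes: exon-scaled FPKM from 0; points: libraries, lines: the NS and St libraries with 1 culture number, bars: mean ± SD of the 3 libraries). All TNFR2-/- points of Kcng4 lie above all WT points, and TNFR2-/- culture 5 is the highest Kcnj10 point in each condition.

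Kcna3, the Shaker channel best known from T cells and microglia and also linked to OPC division, was the 1 gene lower in TNFR2-/- NS. Its exon-scaled FPKM was 5.88, 8.53 and 6.68 in WT NS and 2.65, 3.02 and 1.72 in TNFR2-/- NS, without overlap (log2 fold change -1.12 ± 0.25, limma adjusted p = 0.0268). In stimulated cells it was at 3.97, 4.57 and 3.58 in WT and 1.91, 4.03 and 1.08 in TNFR2-/-, which overlap (-0.60 ± 0.25, adjusted p = 0.16). The NS call was lost without WT NS culture 3 (0.107), WT NS culture 4 (0.0813), TNFR2-/- NS culture 2 (0.0605) or TNFR2-/- NS culture 5 (0.0869), and remained without both libraries of culture 5 (0.0447), in a range from 0.0165 to 0.107. It was also lost with no filter on low values (0.0505) and in the fit to the compared libraries alone (0.0833). With stimulation Kcna3 had a log2 fold change of -0.62 ± 0.25 (adjusted p = 0.137) in WT, called with the culture as a block (0.0177), and -0.11 ± 0.25 (0.799) in TNFR2-/-.

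Kcnn1, a small-conductance calcium-activated channel, was higher in TNFR2-/- NS, at 1.14, 1.16 and 1.8 against 0.828, 0.795 and 0.757 exon-scaled FPKM in WT NS, without overlap (log2 fold change 0.72 ± 0.18, limma adjusted p = 0.0342). Its call was lost without WT NS culture 2 (0.0568), 3 (0.113) or 4 (0.107), TNFR2-/- NS culture 2 (0.0527) or 5 (0.0902), or both libraries of culture 5 (0.0644), in a range from 0.0288 to 0.113. It was also lost with no filter on low values (0.0612) and in the fit to the compared libraries alone (0.097). With the replicate block across genotypes Kcnn1 was under the fold required (log2 fold change 0.57). Kcnh6, an ether-a-go-go-related channel, was called higher in TNFR2-/- NS on 18, 9 and 13 reads against 3, 5 and 7 in WT NS (1.18 ± 0.31, adjusted p = 0.0381). That call was kept in 8 of 22 alternatives and lost without any 1 of WT NS culture 2 (0.0866), 3 (0.109) or 4 (0.07), TNFR2-/- NS culture 2 (0.108) or 5 (0.103), WT St culture 2 (0.0512), 3 (0.0521) or 4 (0.0572), or both libraries of culture 5 (0.0766), in a range up to 0.11. It was also lost with no filter on low values (0.073), quantile normalization (0.0559), limma-voom (0.0628), the replicate block across genotypes (0.0506) and the fit to the compared libraries alone (0.11).

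Kcnc4 and Scn1a completed the calls among stimulated cells. Kcnc4 was at 0.335, 0.363 and 0.417 in WT St and 0.836, 0.829 and 0.865 exon-scaled FPKM in TNFR2-/- St, without overlap (log2 fold change 0.80 ± 0.14, limma adjusted p = 0.018). It was lost without WT St culture 3 (0.0743), WT St culture 4 (0.0636) or TNFR2-/- St culture 5 (0.0622), in a range from 0.0118 to 0.0743. In NS its log2 fold change was 0.50 ± 0.14 (adjusted p = 0.0459), under the fold required. Scn1a, a neuronal sodium channel pore, was at 0.292, 0.35 and 0.268 in WT St and 0.111, 0.193 and 0.122 in TNFR2-/- St, without overlap (-0.85 ± 0.21, adjusted p = 0.0438). It was kept in 11 of 23 alternatives and lost without WT St culture 2 (0.0809), 3 (0.155) or 4 (0.107), TNFR2-/- St culture 2 (0.104) or 5 (0.13), WT NS culture 3 (0.0584) or 4 (0.0609), TNFR2-/- NS culture 2 (0.0592) or both libraries of culture 5 (0.0938), in a range up to 0.155. The Scn1a call was also lost with no filter on low values (0.0803), quantile normalization (0.0544) and the fit to the compared libraries alone (0.0821).

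Kcnj10 was higher in every TNFR2-/- library than in every WT library of its condition, but was not called, with log2 fold changes of 0.80 ± 0.33 in NS (limma, adjusted p = 0.132) and 1.0 ± 0.33 in St (0.0925). Without both libraries of culture 5 these were 0.43 ± 0.15 (adjusted p = 0.114) and 0.67 ± 0.15 (0.062). Kcnj16 was likewise above WT without overlap, with log2 fold changes of 0.46 ± 0.12 (0.0414) and 0.52 ± 0.12 (0.042), under the fold required. Astrocytes are known to express both genes, and the 8 astrocyte markers summed to 2050 to 2400 CPM in WT NS, 2940 to 4550 in TNFR2-/- NS, 1960 to 2020 in WT St and 2990 to 4530 in TNFR2-/- St, with none of the 8 below 1 in every library. In this list 1 gene (Gja1) was called higher in TNFR2-/- NS and 2 (Slc1a2 and Slc1a3) in TNFR2-/- St. The part of these cells in the genotype values of channel genes was not tested.

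The difference between the 2 responses was called for 0 of the 107 channel genes by limma, against 1 of the 18081 genes (0.00553%), and 3 channel genes (Kcnk10, Cacnb3 and Scn4a) had an unadjusted p under 0.05 (2.8%, against 7.95% of all genes). The log2 fold change with stimulation had the same sign in both genotypes for 88 of 107 genes. Every alternative run for the interaction, voom on the recovered reads and the culture block among them, called 0 channel genes too.

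Other genes of membrane excitability gave a few strong changes. In a list of 10 pacemaker and leak channel genes outside the Kcn, Scn and Cacn names, Hcn4, a pacemaker channel opened by hyperpolarization and cyclic AMP, was at 0.966, 1.12 and 0.901 CPM in WT NS and 13.2, 13.9 and 13 in WT St. In TNFR2-/- it was at 0.764, 0.859 and 0.626 before and 17.2, 27.7 and 43.8 after stimulation. The groups were far apart, and Hcn4 was called with stimulation at a log2 fold change of 3.68 (limma, adjusted p = 3.86e-06) in WT and 5.10 (2.72e-07) in TNFR2-/-, and between genotypes in St at 1.04 (0.0486). Hcn2 was the other call of that list (-0.61 in TNFR2-/-, adjusted p = 0.0122).

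Of 16 channel partner genes 10 were tested. Amigo1, the partner of Shab channels, fell in WT (log2 fold change -0.80, limma adjusted p = 0.000555) and in TNFR2-/- (-1.11, 3.76e-05), while the Shab gene Kcnb2 was not called in any comparison. Stac3, an adaptor of L-type calcium channels, rose in WT (1.27, 0.00372) and was at 0.42 in TNFR2-/- (0.221). Of 11 anchoring and trafficking genes, Nedd4l, a ubiquitin ligase that removes sodium and potassium channels from the membrane, rose in TNFR2-/- (0.83, 0.000164) and was at 0.52 in WT (0.00497), under the fold required. Of 9 sodium-potassium pump genes tested, Atp1b2, a glial pump subunit, was higher in TNFR2-/- in NS (0.70, adjusted p = 0.00973) and in St (0.70, 0.0111), and of 8 calcium pump and exchanger genes tested Atp2b2 was (0.73 and 0.72, 0.0199 and 0.0283). None of the pump and exchanger genes was called with stimulation by limma.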

How the data were processed

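RNA was sequenced from 12 libraries of cultured OPCs. The sources used here differ on the instrument (Illumina protocols per the labels, BGISeq-500 with paired reads of 100 bases in the methods). The values deposited by the authors are FPKM per gene symbol, made with edgeR from read pairs that STAR had aligned to GRCm38 and counted on an Ensembl annotation, after trimming in Trim Galore. The versions of STAR and edgeR and the strand setting of the counting are not given in the sources used here. The 99 symbols on more than 1 row (229 of 45792 rows) were left out.

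Low FPKM values are whole multiples of what 1 read is worth, so reads were recovered for 26636 genes (all genes above 0 in at least 2 libraries, to a tolerance of 0.01 reads). Levels were rescaled with annotated exon length (GENCODE vM21). Genes with a mean FPKM of at least 0.1 were tested with limma 3.58.1 (R 4.3.3) on log2(FPKM + 0.5), with 4 group means over 12 libraries and a trended prior, and Benjamini-Hochberg adjustment over all 18081 genes. Fold changes are on this scale and understate those of low genes. Tables and figures used Python 3.11.15 with pandas 2.3.3, scipy 1.17.1 and matplotlib 3.10.9. The test was run on simulated data (TNFR2-/- St against WT St, 14038 genes), where 86 of 89 genes changed 2-fold, 90 of 90 changed 4-fold and 11 of 12674 unchanged genes were called. Those reads were drawn independently, with the same dispersion for every gene and no culture effect, and genes of few reads were left out. The shares therefore check that the test runs correctly and do not measure its power or error rate in the real libraries.

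NS and St libraries with 1 number and 1 genotype deviated together (correlation 0.34 to 0.65 in 6 pairs, against -0.45 to 0.09 for other numbers, over 13554 genes), so the number pairs them, whereas across genotypes it did not (-0.06 to 0.2 in 4 pairs). The pairing comes from these data and the culture numbers of the labels. Alternatives were another pseudocount (0.1 or 1), filter, scaling, prior or set of libraries, limma-voom on the recovered reads, the replicate block, leaving out each library and, chosen after seeing the data, leaving out both libraries of TNFR2-/- culture 5.

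The channel genes, gene lists and thresholds were chosen with earlier results of these data known. Genes were named where called in a comparison with groups that did not overlap, where among the 10 highest in WT NS, or where on a list of channels known from OPCs, and those with at most 3 reads by subfamily. The counts cover all channel genes, a few of which are not reported here by name. Promoter sequences are those of RefSeq.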

Additional observations from a re-analysis of the deposited data

Results flagged for a closer look

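The L-type pore gene Cacna1d was picked out because its change with stimulation had opposite signs in the 2 genotypes, culture by culture. The log2 ratio of St to NS in exon-scaled FPKM was -0.26, -0.07 and -0.02 in WT cultures 2, 3 and 4, and 0.07, 0.23 and 0.17 in TNFR2-/- cultures 2, 4 and 5. The fitted difference between the responses was 0.27 ± 0.21 on the log2 scale and did not pass the interaction test (limma, unadjusted p = 0.224, adjusted p = 0.808).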

How the results depend on the processing

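Alternatives kept or lost calls and reversed none. Of 5 channel genes called in TNFR2-/- NS against WT NS, 2 remained in number with no filter on low values, 0 in the fit to the compared libraries alone and 3 without both libraries of TNFR2-/- culture 5, whereas 8 passed with no fold threshold. Leaving out 1 library gave 1 to 9. Of 4 in St, 1 remained in number in the fit to the compared libraries and 2 without culture 5, and leaving out 1 library gave 0 to 6. With no fold threshold the stimulation counts were 16 in WT and 26 in TNFR2-/-, against 10 and 15, and leaving out 1 library gave 8 to 12 and 13 to 17. The interaction gave 0 throughout.

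With the culture number as a replicate block within genotype, 15 channel genes were called with stimulation in WT (all 10 called without it, and Kcna3, Kcnc1, Kcnj10, Kcnk13 and Kcnt1) and 20 in TNFR2-/- (all 15, and Cacng5, Kcnc1, Kcnj2 and Scn3a among others), and no call was lost. The block by number across genotypes, where the numbers did not pair the samples, gave 5 in NS and 4 in St. Single calls lost their significance in 19 of 230 repeats with stimulation in WT, 33 of 345 in TNFR2-/-, 34 of 114 by genotype in NS and 28 of 92 in St. The named genes that were not called passed in 13 of 620 repeats in WT, 12 of 551 in TNFR2-/-, 4 of 736 in NS and 3 of 758 in St. Depth limits the genes with few reads, such as Kcnh6, Kcna5 and Kcnj8.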
